A study of Rattus norvegicus with 3 samples.

Results

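Cytosolic ribosomal proteins are the protein parts of the ribosome, the particle that translates messenger RNA in every cell. The large subunit proteins (Rpl and Rplp genes) surround the site where peptide bonds form, and the small subunit proteins (Rps genes and Rpsa) surround the site where codons are read. Because each protein is needed once or a few times per ribosome, cells usually make their messenger RNAs together, and many of these RNAs start with a run of pyrimidines, the 5′ TOP tract, through which mTOR signalling and Larp1 control their translation.

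The members were all gene probes whose name, after removal of "_predicted" or "_mapped", started with Rpl or Rps and a digit, with Rplp or with Rpsa, without Rps6k kinases and pseudogenes. These were 112 of 41012 gene probes, and they carried 75 gene names, 44 of the large and 31 of the small subunit. Each of the 112 probes exceeded background in Cy3 and in Cy5 on every one of the 3 arrays, so every member entered the test among 25801 tested probes and 21805 tested genes. Of 77 standard ribosomal protein symbols, 73 had such a probe, and the other members were the paralogues Rpl3l and Rpl10l. Rplp0 was present under its older name Arbp, which lies outside this rule. Rpl12 and Rpl38 were not analysed here.

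The study set induced pluripotent stem cells of the rat, line iPS F65, against adult rat cells. Samples 1, 2 and 3 of iPS F65 were untreated, were grown on irradiated mouse embryonic fibroblasts, and were each labelled with Cy3. The adult RNA, called mix1, joined cultured bone marrow cells and cultured primary ear fibroblasts, and was labelled with Cy5 on each array. No array swapped the dyes, all iPS samples came from 1 line, and the labels do not say whether the 3 samples were separate cultures. The p-values therefore measure how these 3 samples vary, and that variation may be technical. mix1 counts as 1 control sample, so a ratio tested against 0 leaves out the control's own spread. Mouse RNA from the feeder layer may be present in the Cy3 channel, and its share was not measured. Animal ages and the reprogramming vectors are not given in the sources used here.

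Every value below is the log2 ratio of the processed Cy3 signal over the processed Cy5 signal, so positive values are higher in iPS F65. A gene is represented by its brightest tested probe, where brightness is the mean log2 signal of both channels. A gene was called higher or lower at a Benjamini-Hochberg adjusted p under 0.05 over all tested probes (limma) and a log2 ratio of at least 1 or at most -1, which is a 2-fold difference. Between 57.1 and 61.2% of gene spots were well above background in Cy3 and between 58.3 and 62.1% in Cy5, and no gene spot was saturated. In marker genes, 4 of 4 tested pluripotency genes were called higher (2.71 for Pou5f1 to 4.87 for Nr0b1), 8 of 8 fibroblast genes were called lower (-10.1 to -2.47), and 7 of 8 marrow macrophage genes were called lower. The eighth, Ptprc, gave -2.26 with an adjusted p of 0.0547 (limma). Of 5 erythroid markers only Klf1 was tested, at 2.27. How far the different cell types of mix1 contribute to the ribosomal protein values cannot be told apart from the comparison itself.

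The ribosomal protein transcripts sat in a narrower band of ratios than the tested genes as a whole. Of 75 genes, 5 were called higher (6.67%) and 5 lower (6.67%), while 30.9% of all 21805 tested genes were called higher and 24.5% lower. These counts depended on the scaling: with normexp (flagged backgrounds replaced) and loess 2 members were called higher and 17 lower (22.7%, beside 26.1% of all genes), and their median was -0.45. With normexp on backgrounds as given, then loess, 12 of 75 were called lower, a larger share than the 9.49% of all genes. The values that follow are on the processed ratios. The member ratios ran from -1.53 to 1.73 with a middle range (lower to upper quartile) of -0.56 to 0.32, and 42 of 75 lay within 0.5 of 0, against 24.0% of all genes. All genes had a middle range of -0.97 to 1.25. Every member was well above background in both channels, while a tested gene needed only 1 of them. Of the 17257 genes well above background in both, 28.9% were called higher and 18.7% lower. The median over the member genes was -0.048, -0.085 and -0.060 on the 3 arrays, a mean of -0.064 ± 0.019 (SD, n = 3), and the median of the genes' own means was -0.060. The median over all genes was 0.24, 0.25 and 0.26 on the same arrays, so the member median was -0.32 relative to that of the tested genes.

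**Figure D1:**
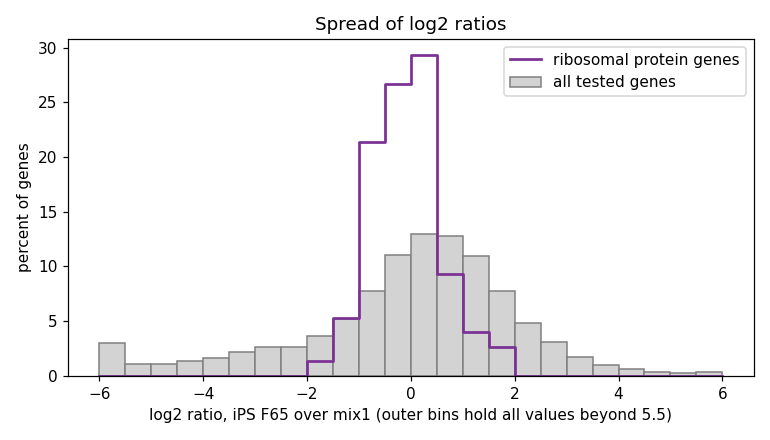
Distribution of log2 ratios (x axis, iPS F65 over mix1, bins 0.5 wide) as a percent of genes (y axis) for all 21805 tested genes (grey bars) and the 75 ribosomal protein genes (purple line). The ribosomal protein line has no gene below -1.53 or above 1.73, while the grey bars extend over the whole axis.

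The arrays repeated each other closely. The SD over the 3 arrays had a median of 0.042 over the member genes, against 0.043 over all genes, and its highest member value was 0.11, for Rpl41. The sign was the same on all 3 arrays for 72 of 75 genes. An adjusted p under 0.05 (limma) was reached by 67 of 75 members and by 95.5% of all genes, so the 2-fold limit, and not the p-value, decided nearly every call.

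**Figure D2:**
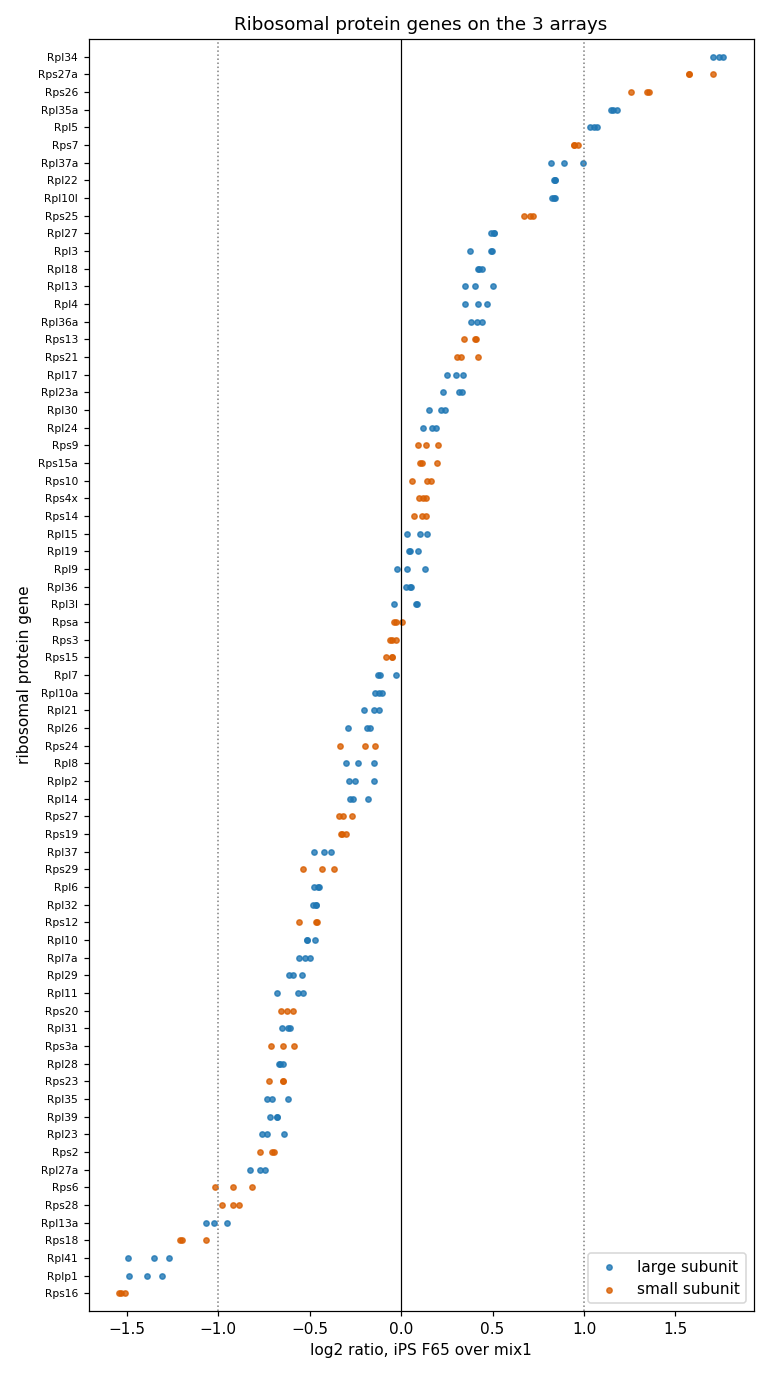
Log2 ratio (x axis) of 71 of the 75 ribosomal protein genes (y axis, sorted by mean), with 1 point per array and 3 arrays per gene, blue for the large and orange for the small subunit. Dotted lines mark ratios of -1 and 1. Both colours occur over the whole range, from Rps16 at -1.53 to Rpl34 at 1.73.

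The 5 genes called higher came from both subunits. Rpl34, a large subunit protein, gave 1.76, 1.74 and 1.71 on the 3 arrays, a 3.33-fold higher signal (mean 1.73 ± 0.027, SD, n = 3, adjusted p = 8.25e-06, limma). Rps27a, made as a fusion of ubiquitin with a small subunit protein, gave 1.71, 1.57 and 1.57, which is 3.07-fold higher (adjusted p = 3.47e-05, limma). Rps26, which lines the exit of the messenger RNA channel, gave 1.34, 1.35 and 1.26, or 2.50-fold higher. These 3 genes lay above every other member on every array. Rpl35a gave 1.16, 1.18 and 1.15. Rpl5, which carries the 5S ribosomal RNA into the large subunit, gave 1.05, 1.03 and 1.07. Rpl5 passed the 2-fold limit narrowly, and Rps7, the next gene, gave 0.95, 0.94 and 0.96 and missed it. The other probes of Rpl5 gave means of 0.81 and 0.81 and the other probe of Rpl35a 0.97, all short of the limit. When all probes of a gene were averaged, Rpl5 was not called. Setting each array's median gene to 0 moved Rpl35a to 0.91 and Rpl5 to 0.80, and then neither was called.

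The 5 genes called lower also came from both subunits. Rps16, whose tail reaches towards the transfer RNA in the decoding centre, gave -1.53, -1.54 and -1.51, a 2.88-fold lower signal (adjusted p = 8.03e-06, limma). Rplp1, an acidic protein of the stalk that receives elongation factors, gave -1.39, -1.49 and -1.31 (adjusted p = 6.93e-05, limma). Its probe was printed 10 times on each array, and the 10 spots ran from -1.53 to -1.21 on array 1, from -1.61 to -1.39 on array 2 and from -1.47 to -1.19 on array 3. The 30 spots of Rplp1 were therefore all below -1. Rpl41, the shortest ribosomal protein, gave -1.27, -1.49 and -1.35. Rps18, a protein of the small subunit head, gave -1.20, -1.21 and -1.06. Rpl13a, which also acts in interferon-dependent control of translation, gave -1.07, -1.02 and -0.95, so array 3 lay short of the limit. Without sample 1 the mean of Rpl13a was -0.99 and it was no longer called.

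The next genes on the low side did not pass the limit. Rps28 was at -0.93 ± 0.049 (SD, n = 3), Rps6, the substrate of S6 kinases, at -0.92 ± 0.10 (SD, n = 3), and Rpl27a at -0.78 ± 0.042 (SD, n = 3). On the high side Rpl37a was at 0.90 ± 0.088 (SD, n = 3) and Rpl22 at 0.84 ± 0.0051 (SD, n = 3). The Rpl37a probe was dim, with a brightness of 7.30 against 16.4 for Rpl22. With normexp and loess Rpl37a was at 0.42 and Rpl22 at 0.55. Rpl22 is a large subunit protein with a separate role in T cell development. All 3 arrays of Rps28, Rpl27a, Rpl37a and Rpl22 stayed inside the 2-fold band, while array 1 of Rps6 was at -1.02.

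The medians of the 2 subunits were compared on each array. The median of the 44 large subunit genes was -0.084, -0.11 and -0.12 on arrays 1, 2 and 3, and that of the 31 small subunit genes was -0.048, -0.074 and -0.048. Large minus small was -0.049 ± 0.023 (SD over 3 arrays). Single genes had an SD of 0.66 within the large and 0.69 within the small subunit. The large subunit held 3 genes called higher and 3 lower, and the small subunit 2 higher and 2 lower. The sign of the gap was not stable to the choice of probe: it was 0.077 when all probes of a gene were averaged.

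Members of 1 functional group stood at different values. The 5S particle joins Rpl5 and Rpl11, which also bind Mdm2 together, and Rpl5 was at 1.05 while Rpl11 gave -0.68, -0.54 and -0.56. The arrays of Rpl5 and Rpl11 did not overlap. In the stalk, Rplp1 was at -1.40 and its partner Rplp2 at -0.23 ± 0.074 (SD, n = 3), and Arbp, the stalk base, was at 0.57 ± 0.031 (SD, n = 3). Rpl10, which joins late and completes the peptidyl transferase region, was at -0.50, and Rpl23, which lies on the face that meets the small subunit, at -0.71. In the small subunit, Rps3 at the messenger RNA entry gave -0.046, Rps19, a protein often mutated in Diamond-Blackfan anaemia, -0.32, Rps27 -0.31, Rps4x 0.12 and Rpsa, also known as the laminin receptor, -0.020. For Rps3 and Rpsa the adjusted p was 0.0581 and 0.320 (limma), and none of these 5 small subunit genes was called.

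Of the tissue-restricted paralogues, Rpl3l, a muscle protein, gave 0.085, -0.041 and 0.083 and was not distinguished from 0 (adjusted p = 0.320, limma). The Rpl3l probe was dim, with a brightness of 7.50. Rpl10l, a germ line copy of Rpl10 without introns, gave 0.83, 0.84 and 0.82, while the brighter Rpl10 probe gave -0.52, -0.51 and -0.47. The groups of 3 values lay on opposite sides of 0. The 2 probes share a stretch of 41 bases at an offset of 19, of which 36 are identical, and they are shown because this resemblance bears on how far each probe reads its own gene. Capitals mark the bases that differ, which in the Rpl10 probe counted from its 5′ end are T30C, A36C, T51C, A57G and T60C.
Rpl10 (chrX:160413361-160413420, minus strand): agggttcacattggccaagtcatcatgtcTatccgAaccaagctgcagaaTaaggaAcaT
Rpl10l (chr6:87933847-87933906, minus strand): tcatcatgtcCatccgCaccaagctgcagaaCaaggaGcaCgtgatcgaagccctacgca
Positions here and below are those of the array design, in build rn3. Whether Rpl10 RNA adds to the Rpl10l signal was not tested.

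Several probes carried the same gene name for 25 genes, which gave 57 probe pairs, and most pairs gave like ratios. The difference within a pair, brighter minus dimmer probe, was called at an adjusted p under 0.05 (limma) and a size of at least 1 for 2 of the 57 pairs, or 3.51%, against 20.2% of all 4903 same-name pairs on the array. The called pairs were those of Rpl28 and Rpl17. All 4903 pairs came from 3243 genes, so genes with many probes weigh more among the member pairs. Pairs of 1 gene also share probes, and a share by gene was not computed for the array. The median size of the difference was 0.31 for member pairs and 0.46 for all pairs. The pairs also differed in signal, as the median gap in brightness within a pair was 0.51 for members and 1.71 for all pairs. Among pairs with a brightness gap under 2, 1 of 47 member pairs (2.13%) and 17.5% of 2747 pairs in all were called. This limits the gap and not the level of signal. Every member probe was well above background in both channels, while other tested probes needed only 1 of them. Rpsa was the closest, with probes at -0.020 and -0.017, and the Rpl36a probes stood at 0.41 and 0.48.

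**Figure D3:**
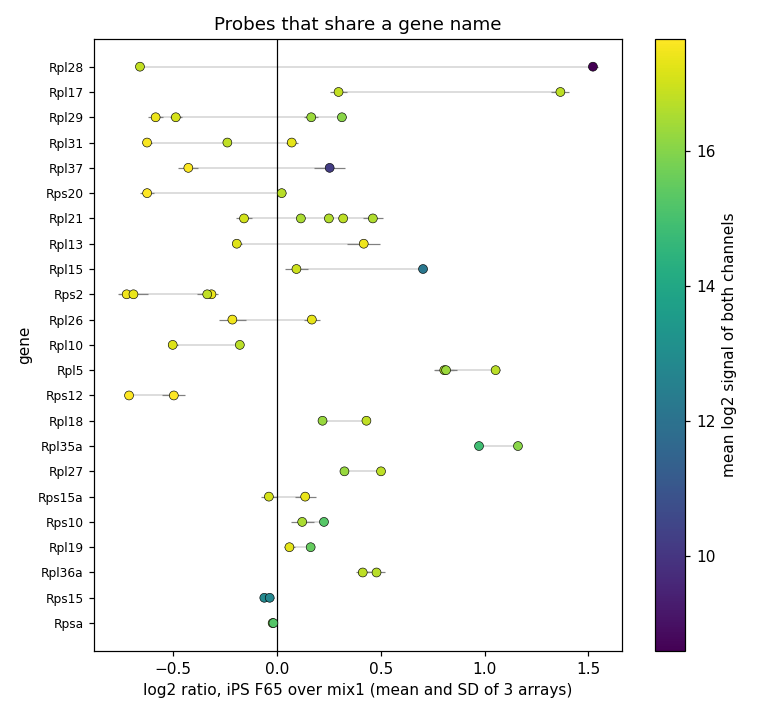
Log2 ratio (x axis, mean of 3 arrays with the SD as a bar) of every probe for 23 of the 25 genes with more than 1 probe (y axis, sorted by the range), coloured by the mean log2 signal of both channels. Rpl28 and Rpl17 have the widest ranges, 2.18 and 1.07, and in Rpl28 the outlying probe is dark, which is a dim signal.

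The widest disagreement was in Rpl28. The bright probe gave -0.65, -0.67 and -0.66 and the dim one 1.52 ± 0.023 (SD, n = 3), a difference of -2.18 (adjusted p = 5.83e-05, limma). The probes differed in brightness by 8.22 log2 units and lie in different places, as shown by the whole bright probe and the first 30 bases of the dim probe.
Rpl28 bright (chr1:67848705-67848764, minus strand): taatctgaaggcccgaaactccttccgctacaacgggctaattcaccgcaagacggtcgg
Rpl28 dim (chr1:67847229-67847288, minus strand): gaaagtatgttctattcatctgatgtgtaa
Rpl17 differed at equal brightness. Its probes gave 0.25, 0.34 and 0.30 against 1.40, 1.32 and 1.38, a difference of -1.07 (adjusted p = 0.000221, limma) with a brightness gap of 0.063. The higher Rpl17 probe shares 34 identical bases with a probe of an expressed sequence tag, which gave 1.55. The 60 bases of the lower probe and the first 30 of the higher one are as follows.
Rpl17 lower ratio (chr18:71937968-71938027, plus strand): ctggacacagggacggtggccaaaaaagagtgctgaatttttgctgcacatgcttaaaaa
Rpl17 higher ratio (chr18:71939292-71939351, plus strand): tatcccagaagaaattgaagaaacaaaagc
Rpl17 therefore counted as neither higher nor lower by its brightest probe, while its other probe was past the limit for a higher call.

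The other wide ranges were smaller than the 2-fold limit on the processed ratios. With normexp (flagged backgrounds replaced) and loess, the widest Rpl29 difference was -1.06 and was called. Rpl29 had 4 probes at -0.58, -0.49, 0.17 and 0.31, of which the lower pair shares a 53-base stretch with 50 identical bases and the upper pair 40 with 35. Rpl29 probes that resembled each other thus gave like values, with the step between the 2 places in the transcript. The 3 probes of Rpl31, a protein at the exit of the peptide tunnel, gave -0.62, 0.072 and -0.24. Rpl37 gave -0.43 on its bright probe and 0.25 on a dim probe of the opposite strand. In 37 of the 57 member pairs (64.9%) the brighter probe had the lower ratio, beside 64.1% of all pairs.

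The lower ratios went with the brightest probes. Over the 75 genes the log2 ratio and the brightness had a Spearman rho of -0.74 and a Pearson r of -0.43, given as a description because the points share arrays and both axes hold both channels. Over 21730 other tested genes rho was 0.033, and over the 443 of them with a brightness above 16 it was -0.16. At a brightness of 16 to 17 the median ratio was 0.31 for 38 member probes and 0.19 for 365 other probes. Above 17 it was -0.43 for 55 member probes and -0.27 for 133 others. Both kinds of probe thus had a positive median in the first of these ranges and a negative one in the second. On all 3 arrays, 96 of the 112 member probes had both channels read from the scan at low gain and scaled up, per the flags in the files. The part of scanning or labelling in the trend was not tested. Probe GC content ran from 26.7 to 55.0% with a rho of -0.26 against the ratio.

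**Figure D4:**
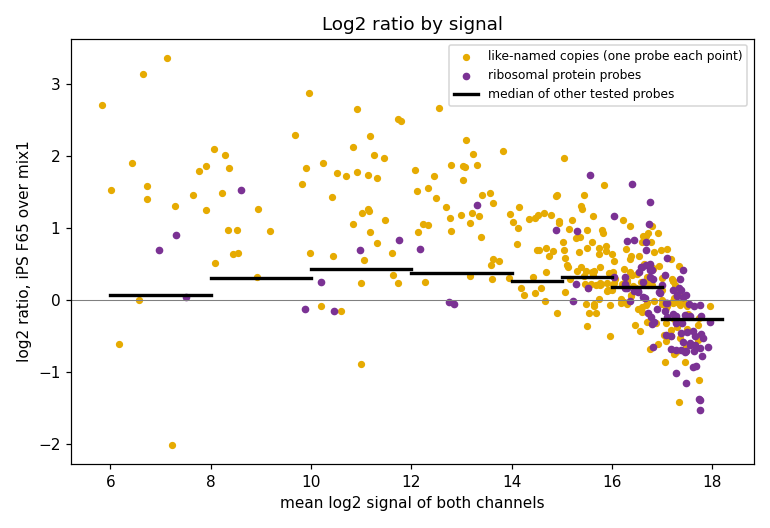
Log2 ratio (y axis) against the mean log2 signal of both channels (x axis) for the 112 ribosomal protein probes (purple), the 282 probes of like-named copies (yellow) and the median of other tested probes per signal bin (black lines). Most purple points lie above a signal of 16, and above a signal of 17 the black line lies at -0.27.

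Scaling moved the whole family and the balance of its calls. With normexp background correction and loess in place of the scanner's processed signals, the median of all genes was -0.077, and the 2 members called higher were 2.67% of the family, against 18.3% of all genes. With array medians set to 0 the counts were 3 higher and 8 lower, beside 24.9% and 28.1% of all genes. The order of the genes hardly changed, with a rho of 0.99 between processed and loess ratios, and loess did not remove the trend with brightness (rho -0.78). Rpl34 and Rps27a stayed called higher at 1.53 and 1.36 under loess, while Rps26 (0.93), Rpl35a (0.92) and Rpl5 (0.74) fell short. Rps16, Rplp1, Rpl41, Rps18 and Rpl13a stayed called lower. Below them 12 further genes passed, among them Rps6 (-1.34), Rps28 (-1.35), Rpl27a (-1.21) and Rpl23 (-1.11). Relative to all genes the member median was -0.32 on processed or centred ratios and -0.38 under loess. That distance rests on the set of genes it is measured against: with no filter on dim probes it was -0.042.

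Ribosomal protein genes have many near-identical copies in mammalian genomes, most of them processed pseudogenes, and RefSeq on assembly GRCr8 lists 908 rat entries with a ribosomal protein symbol ending in a -ps number. On this array 341 further probes were described as similar to one of the member proteins, and 282 of them were tested, for 57 member genes. Of these probes 87 were called higher (30.9%) and 3 lower (1.06%), beside 30.9% and 24.5% of all tested genes, so the higher share equalled that of all genes and the lower share was smaller. They had a median of 0.54 and a middle range of 0.12 to 1.16. Their ratio went with signal: the median was 1.47 for 32 probes at a brightness up to 10, 1.14 for 92 probes between 10 and 15, and 0.23 for 158 probes above 15. Which of these probes read a copy and which read the parent gene was not tested.

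Copies of some extreme members are given one by one. The 6 tested copies of Rps16 gave -1.42, -0.75, -0.32, -0.054, 0.14 and 1.00, in the order of falling brightness from 17.3 to 14.1. For Rps16 the brightest copy thus gave nearly the ratio of the named gene. For Rps27a the copies gave -0.25 at a brightness of 17.7, 1.44 at 14.9, 1.19 at 14.5 and 2.65 at 10.9, so its brightest copy did not have the ratio of 1.62 of the named probe. The 2 copies of Rpl34 gave 0.024 and 0.43, both far from 1.73. The 4 copies of Rpl17 gave 1.72 to 2.66, nearer to its higher probe. Of the member probes themselves, 19 share an exact run of at least 25 bases with a probe outside the rule on the same strand.

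Names and places were checked against RefSeq. The accession of 92 member probes was found there, and 89 had the same symbol. The exceptions were both Rpl36a probes, whose transcript RefSeq now calls Rpl36al1, and the bright Rpl37 probe, now Rpl37l1. The 0.41 listed under Rpl36a and the -0.43 listed under Rpl37 thus come from probes designed to transcripts that now carry the names of paralogues. The design placed the bright Rpl37 probe on chromosome 2, where RefSeq also places Rpl37. Which gene these probes read was not tested. The accessions of Rpl34 and Rps16, the highest and lowest members, were not found. The design placed both of these probes on the chromosome of the named gene. The design placed the probes of 7 genes (Rpl10a, Rpl21, Rpl35a, Rpl36a, Rpl9, Rps10 and Rps7) on another chromosome than RefSeq places the gene, of 73 genes that could be compared. Rpl35a, called higher, and Rps7 are among these 7, and whether their probes also read copies was not tested.

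Ribosomal proteins whose symbols fall outside the rule included Fau and Rack1. Fau, a fusion of a ubiquitin-like protein with a small subunit protein, gave -1.01, -1.23 and -1.12 and was called lower. Rack1, a scaffold on the small subunit (listed as Gnb2l1), gave 0.21 on average and was not called.

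Other genes of the 5′ TOP class were called higher at a rate near that of all genes. Of 20 tested, 8 were called higher and 1 lower, beside 30.9% and 24.5% of all genes, with a median of 0.53 beside 0.25 for all genes and -0.060 for the member genes. Nap1l1, a histone chaperone, was called higher at 2.14 ± 0.054 (SD, n = 3), and Cct4, a chaperonin subunit, gave 1.79, 1.82 and 1.83. Npm1, the nucleolar chaperone, was called higher at 1.49, and so were Eif3h at 1.61 and Eef1b2 at 1.34. Eef1a1 and Eef2, the factors that deliver transfer RNA and move the ribosome, were not called, at -0.37 and -0.42. Tpt1, a growth-related protein, was the one called lower, at -2.31, -2.24 and -2.14. Under loess the class had 5 genes called higher and 2 lower, beside 18.3% and 26.1% of all genes.

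Partners that carry or insert ribosomal proteins were mostly higher. Of 10 tested, 9 were called higher and 0 lower, beside 30.9% and 24.5% of all genes, and their median was 1.56 beside 0.25. Under loess 6 of the 10 were called higher, beside 18.3% of all genes. Rrs1 gave 1.76, 1.76 and 1.72 and Rpf2, listed as Bxdc1, gave 2.46, 2.52 and 2.51. Both insert the 5S particle, whose proteins Rpl5 and Rpl11 stood at 1.05 and -0.59. Grwd1, which holds Rpl3 before assembly, was at 1.17, while Rpl3 was at 0.46 ± 0.066 (SD, n = 3). Ltv1 (1.89) carries Rps3 and Rps20, which stood at -0.046 and -0.62, though the dimmer Rps20 probe gave 0.023. Bccip (1.89) holds Rpl23, at -0.71, and Pdcd2 (1.38) holds Rps2, at -0.72. The other Rps2 probes gave -0.31, -0.69 and -0.34. Ipo7, an importer of ribosomal proteins, was at 2.10. Mdm2, the p53 ligase bound by free Rpl5 and Rpl11, was the one not called, at 0.10.

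In the growth signalling list 3 of 12 tested genes were called higher, 2 lower and 7 neither, which is near the 30.9% higher and 24.5% lower of all genes. Mtor, listed as Frap1, gave 1.82, 1.84 and 1.83, Eif4ebp2 was at 1.86 and Eif4e at 1.64. Larp1, the protein that holds 5′ TOP messages back, was at 0.94 and Rps6kb1 at 0.79, both short of the limit. Myc, an activator of ribosomal protein genes, was called lower at -5.58, -5.54 and -5.54, and Ddit4, an inhibitor of mTOR, at -2.03. The list's median was 0.62, above the 0.25 of all genes.

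**Figure D5:**
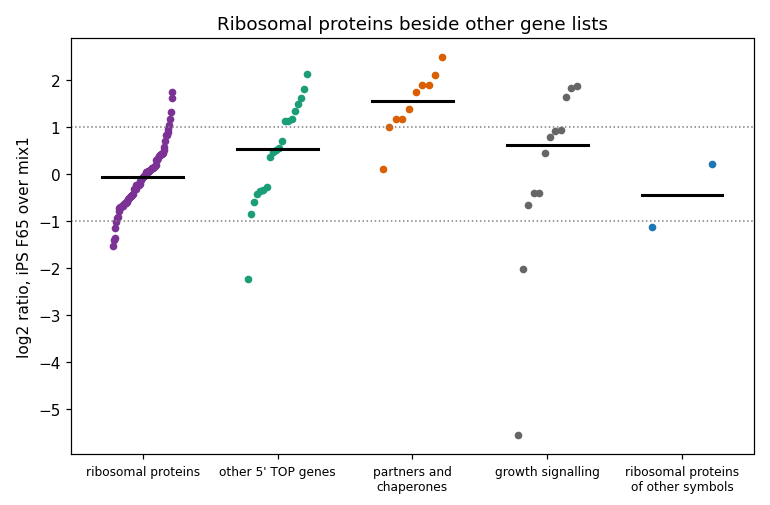
Log2 ratio (y axis, mean of 3 arrays) of each tested gene in 5 groups (x axis), with a black line at the group median and dotted lines at -1 and 1. The 75 ribosomal proteins lie around their median of -0.060, while 9 of 10 partners and chaperones lie above 1 and Myc is the lowest point of the growth signalling list.

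The annotated transcript starts were searched for short pyrimidine motifs of the kind found in 5′ TOP tracts. RefSeq promoters on GRCr8 were found for 60 member genes in 61 windows, and not for 15 genes, among them Rpl10l, Rpl15, Rpl23a, Rpl27, Rpl30, Rpl32, Rpl7, Rpl8, Rps20, Rps25 and Rps29. In the 30 bases from 10 before to 20 after the start, CTCTTT was on the transcript strand in 16 of 61 member windows (26.2%) and in 1.09% of all 33469 windows. CTTTCC was in 14 (23.0%, against 1.15%), CTTTTC in 7 (11.5%, against 0.926%) and CCTTTT in 4 (6.56%, against 0.735%). The motifs can overlap, as in CTCTTTCC, and they were chosen after some windows had been seen. On the opposite strand the same motifs were in 0, 1, 1 and 1 member windows. At least 1 of the 4 was in 31 member windows (50.8%), in 3.35% of all windows and in 3 of 18 windows of the other 5′ TOP genes.

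Windows from both ends of the ratio order are shown, with the motifs in capitals and the annotated start at base 11, because the letters occur in genes called higher, in genes called lower and in neither.
Rps26, 1.32 (GRCr8 chr7:1643385-1643414, minus strand): ccgccgggtcCTCTTTcgagtcttggctcc
Rpl35a, 1.16 (GRCr8 chr11:81235002-81235031, minus strand): tcttgccttcCTCTTTCCgccatcttggcg
Rps7, 0.95 (GRCr8 chr6:50999426-50999455, minus strand): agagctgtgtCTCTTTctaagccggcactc
Rpl10, -0.50 (GRCr8 chrX:157205840-157205869, plus strand): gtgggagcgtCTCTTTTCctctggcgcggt
Rps18, -1.16 (GRCr8 chr20:4933735-4933764, plus strand): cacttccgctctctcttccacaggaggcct
Rplp1, -1.40 (GRCr8 chr8:71290853-71290882, minus strand): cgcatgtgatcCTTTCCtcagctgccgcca
The Rps18 window has a pyrimidine run without any of the 4 motifs. The ratios beside the Rps7 and Rpl35a windows come from probes that the design places on another chromosome than the window. The median log2 ratio was -0.12 for the 31 genes with a motif and -0.16 for the 29 without. Windows and ratios were matched by the listed gene name, so Rpl36a and Rpl37 enter with probes whose transcripts now carry the names of paralogues. The polyadenylation signal AATAAA lay in the representative probe of 8 genes, and their median was 0.40 against -0.091 for the other 67. These were Rpl34 (1.73), Rps27a (1.62), Rps26 (1.32), Rpl13 (0.42), Rps13 (0.39), Rps29 (-0.44), Rpl35 (-0.69) and Rps28 (-0.93). Rpl34, Rps27a and Rps26 are the highest-ranked members. The higher Rpl17 probe also held the signal and the lower one did not, while neither Rpl28 probe did. Whether the place of a probe in the transcript bears on its ratio was not tested.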

How the data were processed

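Labelled total RNA of 3 iPS F65 samples (Cy3) and of mix1 (Cy5) was hybridised to 3 two-colour 60-base oligonucleotide arrays of 1 slide. The authors deposited scanner files in which each spot has a processed intensity, background-subtracted and dye-normalised (linear and LOWESS), made with Agilent Feature Extraction 9.5.3.1, per the file headers. The deposited series table holds log2 ratios equal to those of the processed intensities within 3.1e-06. From the deposited intensity values, log2(Cy3/Cy5) was computed per spot without outlier spots (204 to 213 per array) and averaged per probe. Probes well above background on all 3 arrays in either channel were tested against 0 with limma 3.58.1 in R 4.3.3, with Benjamini-Hochberg adjustment over all tested probes, and the scripts were tested on simulated data. Pairs of probes with 1 name (at most the 5 brightest) were fitted as differences.

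The members and lists were chosen with earlier results of these data known. Genes were named by these rules: the 8 highest and 8 lowest members, the 6 widest probe ranges, and listed paralogues, role genes, 5′ TOP genes, partners, signalling genes and cell type markers. Rpl3, Rps2, Rps20, Rpl36a and genes named for copies, motifs or symbols were chosen after their values were seen. The copies and sequence matches were chosen after the values were seen. Alternatives covered scaling, filters, uneven spots, probe averaging, member rules, the fold limit and each sample left out. Promoter sequences and current symbols came from RefSeq (GRCr8), and array positions from build rn3, per the file headers. Precision is limited by the 3 arrays. The values of a few genes are not reported here by name, though counts and medians include them.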

Additional observations from a re-analysis of the deposited data

How the results depend on the processing

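The median log2 ratio of the members was -0.064 as reported. It was -0.45 with normexp (flagged backgrounds replaced) and loess, -0.30 with normexp (backgrounds as given) and loess, -0.32 with array medians set to 0, -0.031 with probes averaged, and -0.092 with the standard set alone or without predicted and mapped names. Large minus small subunit was -0.049, and became -0.0081, 0.077 and -0.078 with the first loess, averaged probes and either narrower member rule. Leaving out uneven spots and backgrounds kept 57 of 75 members (without Rps16, Rps18 and Rpl41) and gave a median of 0.093, a subunit gap of 0.13 and 2 genes lower. Genes called higher numbered 5, but 2 with the first loess, 3 after centring and 10 at a 1.5-fold limit. The shares of all genes called higher were 30.9%, 18.3%, 24.9% and 41.3% in the same order. Genes called lower numbered 5, but 17 and 12 with the first and second loess, 8 after centring and 18 at 1.5-fold. Of all genes, 24.5%, 26.1%, 9.49%, 28.1% and 30.7% were called lower in the same order of settings. Among these settings, only the second loess gave the members a larger share called lower than all genes. Disagreeing probe pairs numbered 2, but 3 with either loess and 18 at 1.5-fold. Without 1 sample the counts were 5 to 5 higher, 4 to 5 lower and 2 to 2 pairs, the median ran from -0.072 to -0.054 and the subunit gap from -0.056 to -0.036. Of 416 values for 33 named members, 395 kept their call, 8 lost it, 13 gained one and 0 changed sign with a call. No paired analysis was possible because the design has 1 group of samples. With no dye swap and 1 control RNA, dye and condition cannot be told apart. Probes of near-identical copies may share signal.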
